A study of Mus musculus with 9 samples.

Results

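The genes described here encode the protein components of the cytosolic ribosome, measured in CD11b+ cells of the mouse spleen. They were chosen by name: a probe set belongs if the platform annotation gives it a single gene symbol that starts with Rpl or Rps and a digit, or is Rplp0, Rplp1, Rplp2 or Rpsa, with the Rps6k kinases and pseudogene symbols left out. The rule uses no measured value. It found 49 probe sets of 35 genes, out of 12488 probe sets on the array, of which 10855 have a single symbol and stand for 8252 genes. Of the 49, 22 probe sets belong to 17 genes of the large subunit, counting its stalk protein Rplp0, and 27 belong to 18 genes of the small subunit. A further 39 probe sets carry several symbols that include a ribosomal protein gene. They are not members, and Rplp1, Rplp2, Rps6, Rps27a, Rpl5 and Rpl11 have no member probe set.

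CD11b is an integrin chain of monocytes, macrophages and granulocytes, and was the marker by which the cells were sorted. The 9 arrays form 3 groups of 3, all from female mice of 8 to 12 weeks. The tumor-free group was sorted from mice without a tumor. The fresh group was sorted from tumor-bearing mice and taken at 0 h, and the cultured group is tumor-bearing cells kept for 24 h in complete medium. The labels name neither the strain nor the tumor, and no tumor-free cells were cultured, so the effect of culture can be seen here in tumor-bearing cells only. The labels do not tell whether the 3 samples of a group are separate mice, and every p-value here reflects sample-to-sample spread that may be technical. Each value is a MAS5 signal, an array intensity on a linear scale, and precision is limited by having 3 arrays a group.

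A cytosolic ribosome joins a small subunit, which reads the mRNA, to a large subunit, which forms the peptide bond. Each subunit is made of ribosomal RNA and a fixed set of proteins, needed in about equal number, whose genes lie on many chromosomes. Their mRNAs are among the most abundant of a cell and begin with a run of pyrimidines (C or T), the terminal oligopyrimidine or TOP motif, through which the mTOR kinase controls their translation. An mRNA level therefore does not give the rate at which the proteins are made.

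Start-site sequences show how the length of the pyrimidine run differs between members whose values are described below. The 60 bases from 30 before to 30 after the annotated start are given 5′ to 3′ on the gene's strand, from RefSeq on GRCm38.p6, with the longest unbroken run of C and T in capitals. Rps18, Rps10 and Rpl7a are shown because they have a long run at the start, and Rps28, Rps13 and Rpl41 because they do not have one in the annotated window.
Rps18: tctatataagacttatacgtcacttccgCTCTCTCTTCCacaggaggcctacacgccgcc
Rps10: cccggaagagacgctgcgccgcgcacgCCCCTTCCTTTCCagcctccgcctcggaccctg
Rpl7a: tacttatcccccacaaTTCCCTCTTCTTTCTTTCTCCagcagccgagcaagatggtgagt
Rps28: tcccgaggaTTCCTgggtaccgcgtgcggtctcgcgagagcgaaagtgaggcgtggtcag
Rps13: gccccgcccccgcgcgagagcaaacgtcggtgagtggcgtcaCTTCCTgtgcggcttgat
Rpl41: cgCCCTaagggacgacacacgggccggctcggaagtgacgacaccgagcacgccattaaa

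The windows lie at chr17:33955636-33955695 (minus strand) for Rps18, chr17:27635215-27635274 (minus) for Rps10, chr2:26910777-26910836 (plus) for Rpl7a, chr17:33824533-33824592 (minus) for Rps28, chr7:116334161-116334220 (minus) for Rps13 and chr10:128549139-128549198 (minus) for Rpl41. The longest run measures 11 bases in Rps18, 13 in Rps10 and 21 in Rpl7a, against 5 in Rps28, 6 in Rps13 and 4 in Rpl41. The promoter table held 37 promoters of 28 of the 35 genes. In these, 15 of 37 (40.5%) had a run of 8 or more C or T in the 60-base window, against 22.9% of all 32851 promoters in the table. Over the 300 bases from 250 before to 50 after the start, on both strands, CTTCCG (the core that ETS factors bind) stood in 54.1% of the 37, against 16.9% of all. By the same search, CCATCTT (the YY1 core) was in 24.3% against 6.34%, and GGGCGG (the Sp1 core) in 56.8% against 35.7%. A match of letters is a description, and no match says only that these letters are not in this window.

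Some arrays stood apart within their groups, and this touches every result below. The mean log2 signal of the bacterial spike-in controls was 10.36, 9.77 and 9.65 on tumor-free replicates 1, 2 and 3, 9.91, 9.86 and 8.99 on the fresh arrays, and 10.50, 10.49 and 9.25 on the cultured arrays. Split at the median, the high class holds tumor-free 1, fresh 1 and 2, and cultured 1 and 2, while the low class holds tumor-free 2 and 3, fresh 3 and cultured 3. The ratio of actin signal at the 3′ end to that at the 5′ end, a sign of RNA quality, was 2.57 on tumor-free 1 and 2.27 and 2.36 on cultured 1 and 2, and 0.994 to 1.59 on the other 6. An earlier look at these data had singled out tumor-free 1, fresh 3 and cultured 3, each of the class its group holds once, as standing apart, and results are given with and without these 3. Within a group, pairs of arrays correlated at 0.823 to 0.957 over probe sets (Pearson's r of log2 signals).

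Signals of the 49 member probe sets ran from 0.43 to 15121. A filter on low signal kept 39 of them (30 genes). The 10 below it were both Rpl38 probe sets, the only ones of Rps14, Rps15, Rps20 and Rps27l, and one or more of those of Rpl7, Rps29 and Rps4x; they are not tested. Of the 39 kept, 22 (20 genes) had a mean signal of at least 250, a limit set after the data were seen, and these are called bright here. Their means ran from 324 to 11051, while every member under the limit had a mean between 3.66 and 153. Probe sets bind their targets unequally, so the levels of different genes are not compared.

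Cells of tumor-bearing mice were compared first with those of tumor-free mice, which asks how tumor bearing goes with expression in splenic CD11b+ cells. No ribosomal protein probe set passed the test: with limma, 0 of 39 had an adjusted p under 0.05, where 1.9% of all 8695 probe sets tested did, and 4 of 39 had an unadjusted p under 0.05, where 16.7% of all did. The estimates lay mostly below 0. The median log2 difference, fresh minus tumor-free, was -0.23 over the 39 members and 0.01 over all probe sets, with 27 of 39 below 0 against 49.4% of all. The median was -0.06 without the 3 arrays that stand apart, -0.14 without tumor-free 1 alone, -0.15 without fresh 3 alone and -0.36 when the fit had spike-in class as a block. Over the 22 bright members it was -0.33, with 21 of 22 below 0, against a median of -0.01 and 50.3% below 0 over all 1520 probe sets of that brightness. The 17 dim members had a median of 0.15. Among them, Rpl39 gave 0.50 ± 0.40 (limma adjusted p = 0.535) and Rpl35a -0.68 ± 0.45 (adjusted p = 0.459). In 11 of 39 members all 3 fresh signals lay under all 3 tumor-free signals, where 13.1% of all probe sets did so, and in 1 member, Rps13, all 3 lay above (9.34% of all). Among the bright members 9 of 22 lay under, against 15.3% of all bright probe sets, and 0 of 22 above, against 12.8%. Without the 3 arrays that stand apart, 10 of 39 passed (24.7% of all probe sets). These were Rps18, Rpl8, Rps10, Rpl7l1, a probe set each of Rpl19, Rpl22 and Rps28, all lower in fresh samples, and Rpl41 and a probe set each of Rpl10a and Rps28, higher. The tumor-free arrays left are then all of the low spike-in class and the others all of the high class, so class and tumor bearing cannot be told apart in that set. With the class as a block in the fit, 1 of 39 passed (3.19% of all), Rpl10a on 161327_f_at, lower in fresh samples (-0.85 ± 0.20). That is the same Rpl10a probe set that was higher without the 3 arrays (0.48), so its direction depends on the arrays used; over all 9 it was -0.41 ± 0.51 and did not pass. In RNA of a whole sorted population, fewer cells of a type with much of an mRNA and less of it per cell cannot be told apart.

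**Figure D1:**
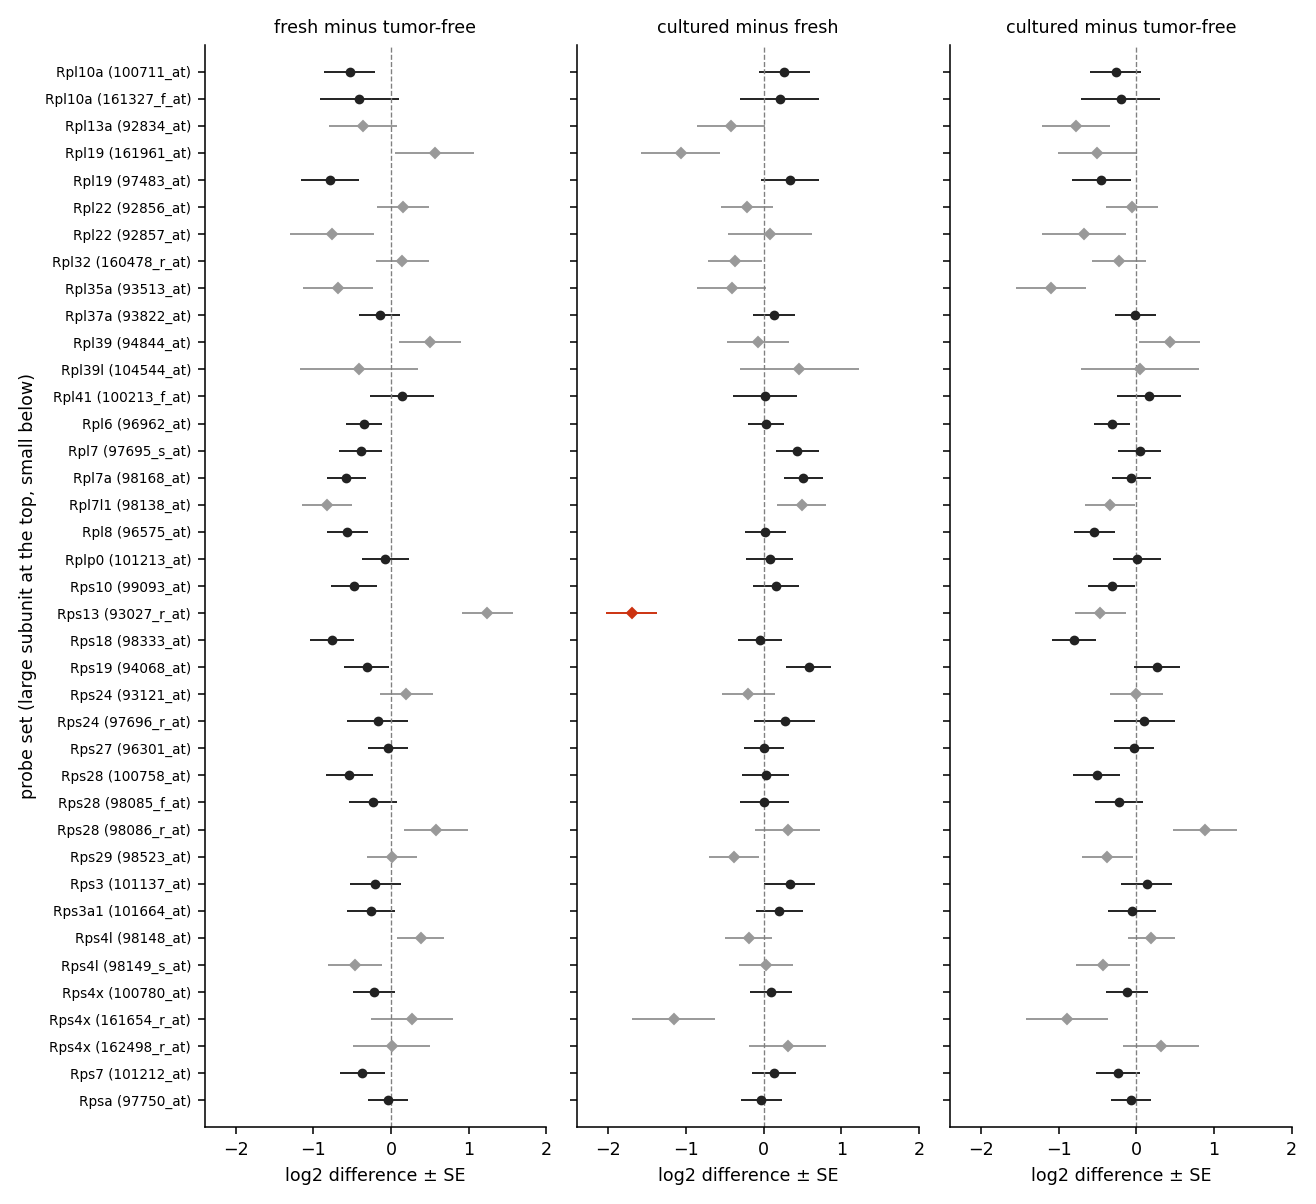
Log2 difference (horizontal axis) of the 39 tested member probe sets in the 3 comparisons, with its standard error; black circles have a mean signal of at least 250, grey diamonds less, and red marks a test passed. Rps13 in cultured minus fresh is the only member that passed, and 21 of 22 black circles lie below 0 in fresh minus tumor-free.

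Rps18, a small-subunit protein at the contact with the large subunit, had the lowest unadjusted p among the bright members. Its signal was 2705, 3982 and 4243 in the tumor-free samples, 2183, 2010 and 2154 in the fresh ones and 2292, 2359 and 1580 in the cultured ones. All tumor-bearing samples, fresh or cultured, lay under all tumor-free samples. The means were 3643 ± 823, 2115 ± 92.8 and 2077 ± 431 (SD, n = 3 each). Fresh minus tumor-free was -0.76 ± 0.28 on the log2 scale (SE; limma adjusted p = 0.21), which did not pass.

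Rpl8, a large-subunit protein near the site where the peptide bond forms, had signals of 2475, 2754 and 2377 in tumor-free, 1746, 1626 and 1759 in fresh and 2201, 1874 and 1266 in cultured samples. Again no tumor-bearing sample reached the tumor-free range, and the fresh mean was 1710 ± 73.1 (SD, n = 3). The difference of fresh from tumor-free was -0.56 ± 0.27 (adjusted p = 0.312). Rps28, a small-subunit protein at the channel where the mRNA leaves, was measured on probe set 100758_at at 3242, 3818 and 3904, then 2487, 2490 and 2547, then 3242, 3096 and 1653. The fresh samples were almost equal to each other and below every tumor-free one, with a difference of -0.54 ± 0.30 (adjusted p = 0.387).

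Rpl7a, a large-subunit protein with the longest pyrimidine run of the windows printed above, had signals of 2026, 1563 and 1696 in tumor-free, 1344, 1040 and 1151 in fresh, and 1830, 1909 and 1340 in cultured samples. The fresh samples were low, and cultured samples 1 and 2 lay within the tumor-free range. Fresh minus tumor-free was -0.58 ± 0.25 (adjusted p = 0.282) and cultured minus fresh 0.51 ± 0.25 (adjusted p = 0.354). Rps10, a small-subunit protein whose gene is mutated in some patients with Diamond-Blackfan anemia, gave 2316, 2134 and 2070 in tumor-free, 1466, 1349 and 1913 in fresh, and 2243, 2018 and 1158 in cultured samples. Its fresh and tumor-free samples did not overlap, and its cultured samples ran from below the lowest fresh sample into the tumor-free range. The difference of fresh from tumor-free was -0.48 ± 0.30 (adjusted p = 0.432).

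Rpl6, Rpl7 on probe set 97695_s_at, Rpl10a on 100711_at and Rps7 were the other bright members without overlap between fresh and tumor-free samples. Their differences were -0.34, -0.39, -0.53 and -0.37, with adjusted p from 0.426 to 0.529. Rps7 is a small-subunit protein that, free of the ribosome, binds the p53 regulator Mdm2; its signals were 2250, 2863 and 2805, then 2218, 2178 and 1737, then 2589, 2693 and 1583. Rpl10a, part of the stalk of the large subunit where the used tRNA leaves, had 1661, 1160 and 1225, then 1108, 1045 and 667, then 1539, 1195 and 732. In both, fresh 3 and cultured 3 were the lowest samples of their groups.

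Rpl19, a large-subunit protein that reaches across to the small subunit, had the widest spread within the tumor-free group among these. On probe set 97483_at the signals were 1435, 3494 and 3473 in tumor-free, 1517, 1236 and 1800 in fresh and 2147, 2258 and 1408 in cultured samples. Tumor-free 1 lay with the fresh samples, and the other tumor-free arrays above every other sample. The difference of fresh from tumor-free was -0.79 ± 0.38 (adjusted p = 0.316). Without tumor-free 1 it was -1.21 and passed (adjusted p = 0.0325), the only one of the 39 to do so, where 7.17% of all probe sets passed, and over all alternatives computed the adjusted p ran from 0.000942 to 0.679.

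**Figure D2:**
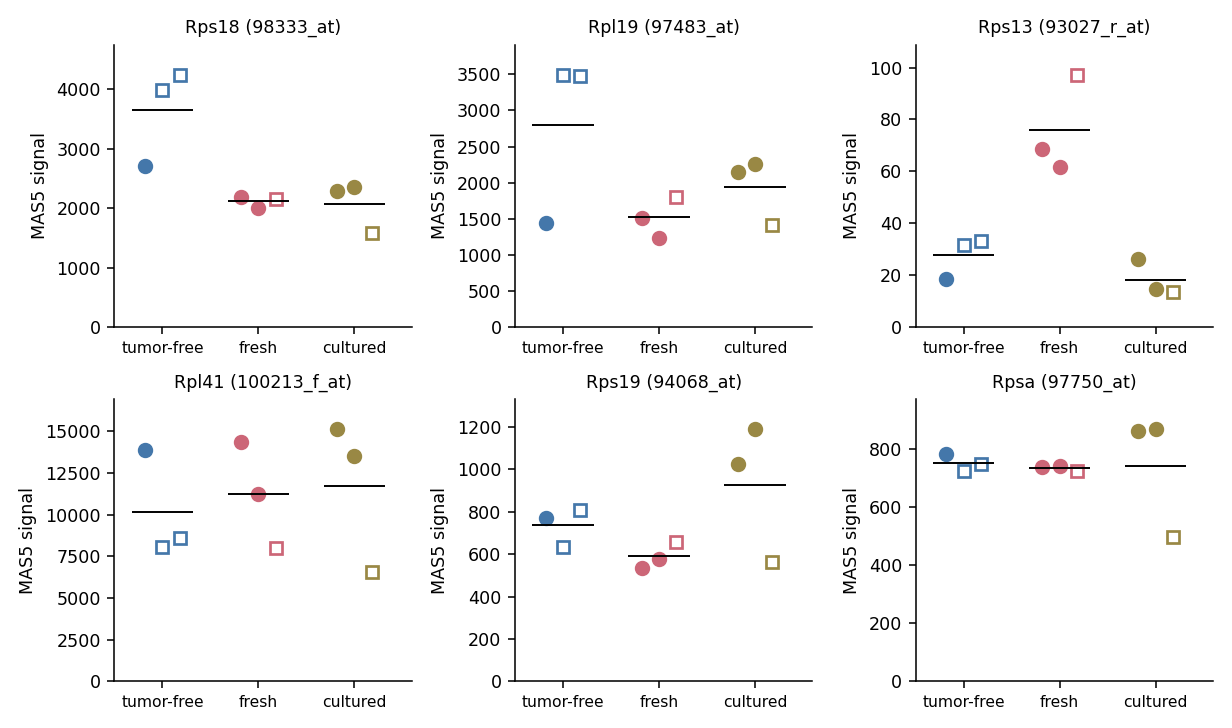
MAS5 signal (linear, vertical axis, each panel on its own scale) of 6 members on each of the 9 arrays; circles are arrays of the high spike-in class, squares of the low class, and the line is the group mean. Rps18 is under its tumor-free range on all 6 tumor-bearing arrays, Rps13 is high on the 3 fresh arrays, and Rpsa stays between 725 and 868 except on cultured 3.

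Several bright members had group means close together. Rplp0, the base of the stalk that calls elongation factors to the ribosome, had signals of 4413, 4909 and 4593 in tumor-free, 4752, 4375 and 4124 in fresh, and 5903, 5527 and 3076 in cultured samples. Rpsa, a small-subunit protein also known as the laminin receptor precursor, had 783, 726 and 749, then 736, 741 and 725, then 863, 868 and 497. The tumor-free and fresh samples of both genes overlapped, and cultured 3 was the lowest of the 9 arrays for each. Fresh minus tumor-free was -0.07 ± 0.31 for Rplp0 (adjusted p = 0.922) and -0.04 ± 0.26 for Rpsa (adjusted p = 0.956). Rps27, a small-subunit protein, and Rpl37a, of the large subunit, had -0.04 and -0.14 in that comparison. Standard errors of this size leave room for differences that these arrays could not detect.

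The highest signals belonged to Rpl41, the smallest ribosomal protein, and to the Rps24 probe set 97696_r_at, whose gene is another of those mutated in Diamond-Blackfan anemia. Rpl41 had 13890, 8060 and 8615 in tumor-free, 14365, 11259 and 8024 in fresh, and 15121, 13531 and 6596 in cultured samples. Rps24 had 14145, 8534 and 8909, then 10753, 9390 and 7495, then 14499, 13962 and 6592. Both were high on all 5 arrays of the high spike-in class and lower on all 4 of the low class, in every group. Their part in the group differences was not tested beyond leaving them out, as follows.

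The summed signal of all 49 members was also set against the summed signal of all non-control probe sets on each array. The share was 3.93%, 3.50% and 3.59% in tumor-free, 3.44%, 3.11% and 2.73% in fresh, and 4.13%, 3.93% and 2.35% in cultured samples. Every fresh sample lay under every tumor-free one, and the cultured samples held both the highest and the lowest of the 9. The means were 3.67 ± 0.226, 3.09 ± 0.356 and 3.47 ± 0.977 percent (SD, n = 3 each). Fresh minus tumor-free was -0.577 percentage points, and -0.268 without the 3 arrays that stand apart. The highest shares were on tumor-free 1 and cultured 1 and 2, which also had the highest actin ratios (2.57, 2.27 and 2.36). The part of RNA quality in the shares was not tested. Without the Rpl41 and Rps24 probe sets above, a choice made after the data were seen, the shares were 2.50%, 2.62% and 2.65% in tumor-free, 2.14%, 2.02% and 1.91% in fresh, and 2.62%, 2.52% and 1.64% in cultured samples. The gap between fresh and tumor-free samples then was wider than the spread within either, with means of 2.02 ± 0.116 and 2.59 ± 0.0763 percent. Tumor-free 1 then had the lowest share of its group, and cultured 1 and 2 lay within the tumor-free range.

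**Figure D3:**
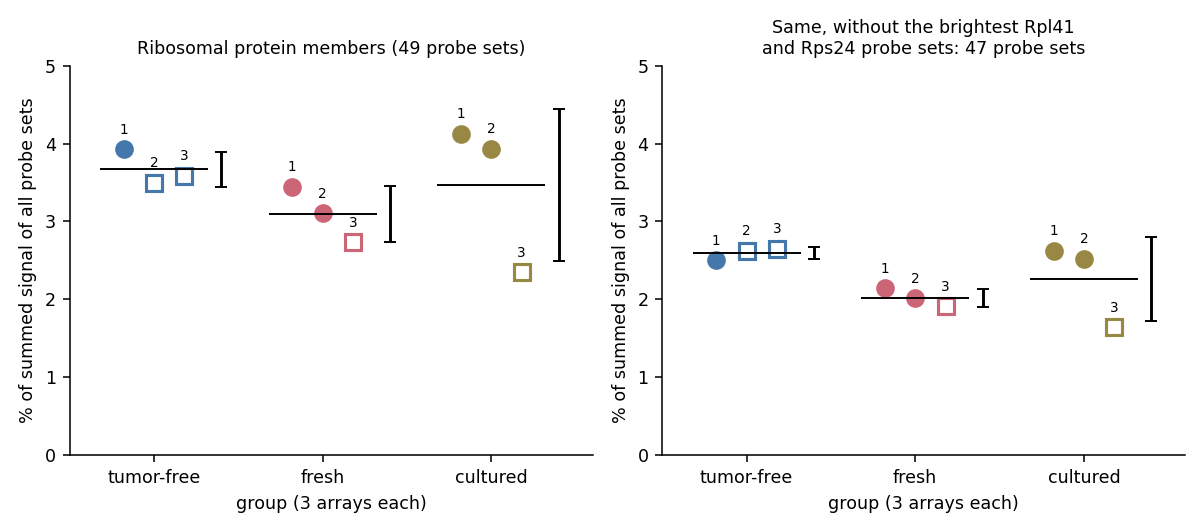
Ribosomal protein share of the summed signal in percent (vertical axis) on each array, for all 49 member probe sets (left) and without the brightest Rpl41 and Rps24 probe sets (right); numbers are replicates, filled circles the high and open squares the low spike-in class, lines the mean and bars the SD. The 3 fresh arrays lie under the 3 tumor-free arrays in both panels, and cultured 3 is the lowest array in both.

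Within the high spike-in class the median difference of the 22 bright members, fresh minus tumor-free, was -0.34 (2 arrays against 1), and within the low class -0.54 (1 against 2). The share differed by -0.651 percentage points in the high class and by -0.812 in the low class. Over all 39 members the within-class medians were -0.11 and -0.32. These within-class values were not tested one by one. The direction was the same in both classes.

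Related probe sets outside the members are set beside them here, with no test of the difference. The 35 tested probe sets with several symbols that include a ribosomal protein gene had a median of -0.35, with 27 below 0 and 0 passed (5 at an unadjusted p under 0.05, limma). Their share of summed signal was 3.81 ± 0.142, 2.84 ± 0.221 and 3.19 ± 0.687 percent in tumor-free, fresh and cultured samples. The 64 tested probe sets of mitochondrial ribosomal proteins, which build the separate ribosome of that organelle, had a median of -0.36, with 53 below 0 and 0 passed (10 at an unadjusted p under 0.05). Over all probe sets, in the same comparison of fresh with tumor-free samples, 49.4% lay below 0 and 1.9% passed. An unadjusted p under 0.05 (limma) was found for 16.7% of all.

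By subunit, the 12 bright small-subunit probe sets all had estimates below 0 and a median of -0.25. The 10 bright large-subunit ones had a median of -0.40, with Rpl41 alone above 0. The difference between subunits was not tested.

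Culture was examined by comparing tumor-bearing cells after 24 h in medium with those taken at 0 h. A single member passed the test, 1 of 39, in the direction lower in culture, where 2.69% of all probe sets passed in either direction and 1.17% were lower. At an unadjusted p under 0.05 it was again 1 of 39, where 16.3% of all passed. This was Rps13, a protein of the small subunit. Its signals, on probe set 93027_r_at, were 18.3, 31.6 and 33.1 in tumor-free, 68.5, 61.8 and 97.2 in fresh, and 26.2, 14.5 and 13.4 in cultured samples. The 3 fresh samples stood above the other 6. The means were 27.7 ± 8.15, 75.8 ± 18.8 and 18.1 ± 7.10 (SD, n = 3 each). Rps13 fell by 1.70 ± 0.33 on the log2 scale from fresh to cultured samples (limma adjusted p = 0.0209). Fresh minus tumor-free was 1.24 ± 0.33 and did not pass (adjusted p = 0.0911).

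The Rps13 call has limits. Its probe set is dim, its name ending marks it as built under relaxed probe rules, and it is the only one the array has for that gene under a single symbol. The call was lost without fresh 1, 2 or 3 or cultured 2 in turn, with adjusted p = 0.0751, 0.0612, 0.0633 and 0.101, and over all alternatives the adjusted p ran from 0.0118 to 0.101 with the same direction. The markers of exocrine pancreas, described below, were also high on the 3 fresh arrays, and their part in the result was not tested.

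For the other members, most cultured minus fresh estimates were small. The median was 0.03 over the 39, with 13 below 0, against 0.02 and 47.7% over all probe sets. Over the 22 bright ones it was 0.13, with 2 below 0, against -0.03 and 52% over all bright probe sets. No member had all cultured samples above all fresh ones, where 13.4% of all probe sets did. Rps13, Rpl35a and Rpl19 on 161961_at had all cultured samples below, 3 of 39, against 8.81% of all. Among the larger estimates were Rpl7l1 (0.49), Rpl39l (0.46), Rpl7 on 97695_s_at (0.43), Rpl13a (-0.42) and Rpl35a (-0.41), none of which passed. This comparison and the preceding one share the fresh arrays, so opposite estimates in them are not separate findings.

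Rps19, the gene most often mutated in Diamond-Blackfan anemia and needed to finish the RNA of the small subunit, had the largest estimate above 0. Its signals were 772, 636 and 807 in tumor-free, 536, 579 and 657 in fresh, and 1025, 1188 and 564 in cultured samples. Cultured 1 and 2 were above all other arrays, while cultured 3 lay among the fresh ones. Cultured minus fresh was 0.58 ± 0.29 (adjusted p = 0.367). Without the 3 arrays that stand apart, which leaves fresh and cultured arrays of the high class only, it was 0.98 and passed (adjusted p = 0.00853; 0.00853 to 0.754 over all alternatives). Even so, spike-in signals were 9.91 and 9.86 on these fresh arrays, against 10.50 and 10.49 on the cultured ones. Actin ratios were 1.59 and 1.58 against 2.27 and 2.36, so array quality and culture cannot be told apart in that set. In that set 7 of 39 members passed, where 15.8% of all probe sets did. Rps19, Rps10, Rpl7a and the bright Rpl19 probe set were higher in culture, and Rps13 and the dim probe sets of Rpl19 and Rps4x lower. Rps3, a small-subunit protein at the entry of the mRNA channel, also had cultured samples that disagreed, with 4724, 3386 and 2361 in cultured against 3160, 3112 and 1906 in fresh samples, a difference of 0.34 ± 0.33 (adjusted p = 0.691).

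Cultured 3 differed from cultured 1 and 2 across the bright members. Relative to the mean of the tumor-free arrays, the median log2 deviation of the 22 bright members was 0.14 and 0.09 on cultured 1 and 2, and -0.61 on cultured 3, where all 22 lay below 0. On the fresh arrays it was -0.19, -0.30 and -0.51, and on fresh 3 all 22 were again below 0. The low spike-in class holds both arrays, and also tumor-free 2 and 3, whose medians were -0.03 and -0.02. The actin ratio was 2.27 and 2.36 on cultured 1 and 2, and 1.16 on cultured 3. It was 1.59, 1.58 and 1.35 on the fresh arrays, and 2.57, 0.994 and 1.19 on the tumor-free arrays. The part of RNA quality in these values was not tested. Within the high class the bright members' median, cultured minus fresh, was 0.33 (2 arrays against 2), and within the low class it was -0.20 (1 against 1), so the direction was not shared. Over the 39 members the median was 0.31 without cultured 3, -0.08 without cultured 1 and 0.23 without the 3 arrays that stand apart.

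**Figure D4:**
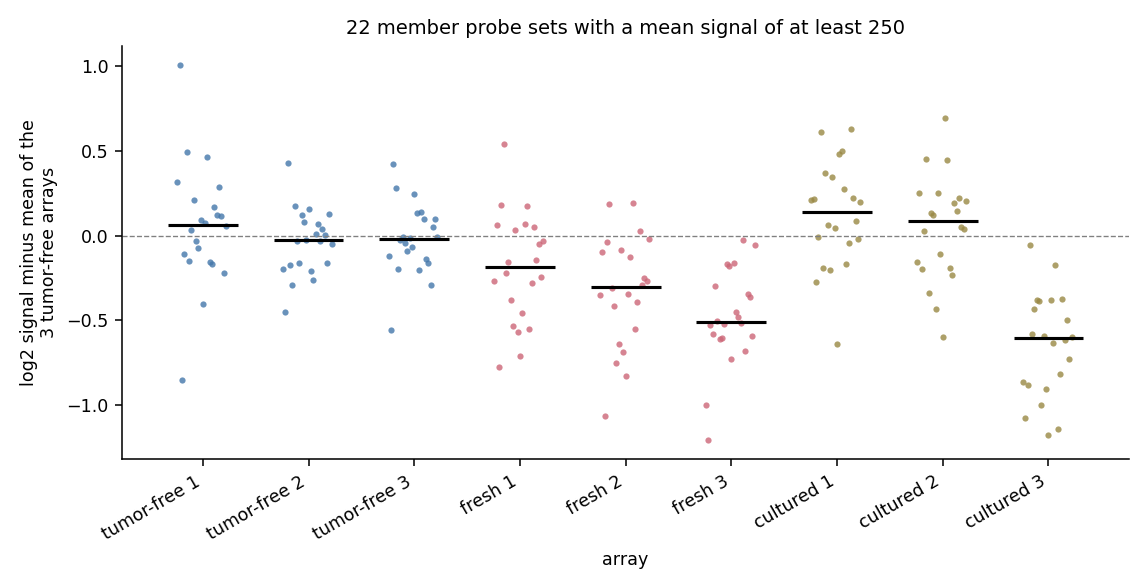
Log2 signal of the 22 bright member probe sets on each array minus the mean of the tumor-free arrays (vertical axis). A point, colored by group, is a probe set, the black bar is the median of an array, and the dashed grey line marks 0. The medians of fresh 3 (-0.51) and cultured 3 (-0.61) are the lowest, and cultured 1 and 2 lie slightly above 0.

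Mitochondrial ribosomal protein genes gave a median of 0.32 in culture, with 51 of 64 estimates above 0 and 13 below, where 47.7% of all probe sets lay below. At an unadjusted p under 0.05 (limma) it was 12 of 64, where 16.3% of all passed. After adjustment 1 of 64 passed, where 2.69% of all probe sets did. That was Mrpl27, of the large mitochondrial subunit, which rose by 1.17 ± 0.27 on the log2 scale (adjusted p = 0.0498). Its signals were 91.6, 71.4 and 90.1 in fresh and 179, 202 and 218 in cultured samples, without overlap. Its tumor-free signals, 73.35, 136 and 127, overlapped the fresh ones. The mitochondrial share of summed signal was 0.353 ± 0.00965, 0.287 ± 0.0245 and 0.357 ± 0.00474 percent in tumor-free, fresh and cultured samples. Unlike the cytosolic share, it did not set cultured 3 apart.

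Cultured tumor-bearing cells were last compared with tumor-free cells, a comparison in which tumor bearing and culture cannot be told apart. With limma, 0 of 39 members passed, where 1.23% of all probe sets did, and 2 of 39 had an unadjusted p under 0.05 (14.1% of all). The median was -0.20 over the members and 0.05 over all probe sets, with 27 of 39 below 0 against 45.8% of all. Over the bright members it was -0.09, with 16 of 22 below 0, against 51.2% of all bright probe sets. All cultured samples lay below all tumor-free samples in 6 of 39 (8.2% of all), namely Rpl6, Rpl8, Rpl35a, Rps18, Rps28 on 100758_at and Rps4x on 161654_r_at, and above in 0 of 39 (10.3% of all).

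Without the 3 arrays that stand apart, 8 of 39 passed (20.8% of all), with Rps18 and the bright Rpl19 probe set lower, and Rpl41, Rps19, Rpl39l and a probe set each of Rpl10a, Rps24 and Rps28 higher. The class and the group again cannot be told apart in that set. With the class as a block 1 of 39 passed (2.04% of all), Rpl13a, lower in cultured samples (-1.12 ± 0.24, adjusted p = 0.0486; 0.0486 to 0.757 over all alternatives).

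Rps18 gave -0.80 ± 0.28 (adjusted p = 0.219), close to its estimate in fresh samples. Rpl35a, a large-subunit protein, gave -1.10 ± 0.45 (adjusted p = 0.299) from dim signals of 13.3, 21.1 and 67.0 in tumor-free and 7.29, 8.34 and 11.3 in cultured samples, with tumor-free 3 far above the rest. Rpl13a, which in monocytes treated with interferon leaves the ribosome to silence inflammatory mRNAs, gave -0.77 ± 0.44 (adjusted p = 0.473), with 348, 129 and 136 in tumor-free, 158, 162 and 111 in fresh, and 145, 139 and 54.5 in cultured samples. Tumor-free 1 was high and the other arrays but cultured 3 lay together. The largest estimates above 0 were Rps28 on 98086_r_at (0.89), Rpl39 (0.43), Rps4x on 162498_r_at (0.32), Rps19 (0.26) and Rps4l on 98148_at (0.19). Rps4x on 161654_r_at gave -0.89 and Rpl22 on 92857_at -0.67, and none of these passed. Within the spike-in classes the bright members' median was -0.01 in the high class (2 arrays against 1) and -0.53 in the low class (1 against 2). The median over all 39 was 0.03 without cultured 3, 0.02 without the 3 arrays that stand apart, -0.10 without tumor-free 1 and -0.32 with the class as a block.

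Paralogs with a symbol of their own, often expressed in particular tissues, were dim. Rpl7l1, related to Rpl7, had 60.3, 45.4 and 57.2 in tumor-free, 18.1, 23.1 and 44.5 in fresh, and 48.5, 37.2 and 38.0 in cultured samples. The fresh samples lay below the tumor-free ones, fresh 3 only just, with a difference of -0.83 ± 0.32 (adjusted p = 0.223). Rpl39l had 114, 5.38 and 6.39 in tumor-free samples and 4.23 to 31.1 in the other 6, so that tumor-free 1 alone sets the mean of its group. Rps4l, which RefSeq lists as a transcribed pseudogene, had estimates of 0.38 and -0.46 on its probe sets 98148_at and 98149_s_at in fresh minus tumor-free. Rps27l, known as a target of p53, and Rpl38, known for its part in patterning the skeleton, were below the filter; Rpl38 signals ran from 0.43 to 31.8.

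Probe sets of one gene often disagreed. Of 7 genes with several tested probe sets, 6 had estimates of opposite sign in fresh minus tumor-free (all but Rpl10a), 5 in cultured minus fresh and 3 in cultured minus tumor-free. For Rps28 the estimates in fresh minus tumor-free were -0.54 on 100758_at, -0.23 on 98085_f_at and 0.58 on the dim 98086_r_at. For Rpl19 the dim probe set 161961_at gave 0.56, against -0.79 on 97483_at, and in cultured minus fresh -1.07 ± 0.51 (adjusted p = 0.335) against 0.34. For Rps4x, the copy on the X chromosome, the bright 100780_at gave 0.10 in cultured minus fresh and the dim 161654_r_at -1.16, from 65.6, 47.0 and 8.16 in fresh and 6.20, 8.87 and 16.7 in cultured samples. Rpl22, which mouse T cells need to develop, gave 0.16 and -0.76 on a pair of dim probe sets in fresh minus tumor-free. Ribosomal protein genes also have many processed pseudogenes, and the signal of a probe set can hold RNA of near-identical copies.

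Other genes that serve the ribosome were followed through lists. Of all probe sets, 1.9%, 2.69% and 1.23% passed in fresh minus tumor-free, cultured minus fresh and cultured minus tumor-free. At an unadjusted p under 0.05 (limma) it was 16.7%, 16.3% and 14.1%. Of 21 tested genes of translation factors and other TOP mRNAs, none passed in any of the 3 comparisons (limma; 4, 4 and 0 at an unadjusted p under 0.05), and the median in fresh minus tumor-free was -0.13, with 18 of 21 below 0. Of 44 tested genes of ribosome assembly, 1 fell in fresh against tumor-free, 0 passed in cultured against fresh (4 at an unadjusted p under 0.05), and 1 fell in cultured against tumor-free. The first was Nop16, a nucleolar protein of large-subunit assembly, at -1.26 ± 0.28 (adjusted p = 0.0475), from 203 to 79.6 mean signal. The second was Nop10, a protein of the particles that modify ribosomal RNA, at -1.44 ± 0.30 (adjusted p = 0.0452), from 477 to 168. At an unadjusted p under 0.05 (limma) were 9 of the 44 in fresh and 12 in cultured against tumor-free. Estimates of 27, 26 and 33 of the 44 lay below 0 in fresh minus tumor-free, cultured minus fresh and cultured minus tumor-free. Of 20 tested genes of the mTOR and Myc control of growth, 1 passed, in cultured against tumor-free. It was Mycl, a Myc family transcription factor, which was lower by a log2 difference of -2.14 ± 0.42 (limma adjusted p = 0.0371). Its signals ran from 28.0 to 107 in tumor-free samples and were very dim in cultured ones, at 7.54 to 8.98. In the order above, 5, 5 and 6 of the 20 had an unadjusted p under 0.05 (limma). Of 9 p53 and nucleolar stress genes, 0 passed in any comparison (3, 3 and 2 at an unadjusted p under 0.05).

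Markers of the cells the sort could hold are given beside these results, as summed signals of each list's genes. The shares of all probe sets that passed were 1.9% in fresh against tumor-free, 2.69% in cultured against fresh and 1.23% in cultured against tumor-free. The 21 CD11b+ myeloid genes measured summed to 53041 to 63947 in tumor-free, 66721 to 78557 in fresh and 43439 to 62638 in cultured samples. Against tumor-free, their median was 0.28 in fresh (7 of 21 below 0) and 0.12 in cultured samples (10 of 21 below 0). Itgam, the gene of CD11b, had means of 291, 463 and 550, and fresh minus tumor-free did not pass (0.66, limma adjusted p = 0.404). Only Csf3r, the granulocyte growth factor receptor, passed. It fell in fresh (-1.31, adjusted p = 0.0413) and in cultured samples (-1.79, adjusted p = 0.0133) against tumor-free. Of 17 exocrine pancreas genes, a list that an earlier look at these data gave rise to, 14 rose in fresh against tumor-free and 14 fell in cultured against fresh, and the sums were 1082 to 1438, 14330 to 24636 and 990 to 1854. The pancreas genes took part of the total on the fresh arrays, and with them left out of it the ribosomal protein share, fresh minus tumor-free, was -0.541 percentage points in place of -0.577. Erythroid sums were 1307 to 3813, 8097 to 9284 and 1892 to 11056, with 0 of 10 genes passing in any comparison (5, 4 and 0 at an unadjusted p under 0.05, limma). On cultured 1, 2 and 3 they were 3801, 1892 and 11056. The fresh arrays and cultured 3 thus had both the highest erythroid sums and the lowest ribosomal protein shares. The part of the erythroid genes in the ribosomal protein values was not tested.

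Other cell types were followed in the same way. B cell genes summed to 377 to 1676 in tumor-free, 747 to 830 in fresh and 599 to 1271 in cultured samples, T cell genes to 392 to 589, 472 to 546 and 409 to 526, and plasma cell genes to 2401 to 2906, 1752 to 2220 and 1088 to 2382. A sum mostly follows the brightest genes of its list. For plasma cells it was lower in fresh than in tumor-free samples, but the median log2 difference was 0.56, with 1 of 7 genes below 0. Natural killer cell genes summed to 230 to 396, 154 to 293 and 328 to 697, and platelet genes to 59.7 to 118, 94.6 to 147 and 63.8 to 86.7. Of these 5 lists, Klrb1b, a natural killer receptor, was the only gene that passed: it rose in cultured against fresh (1.79, adjusted p = 0.046), where 2.69% of all probe sets passed. Of 23 cell cycle genes, Mcm4, of the replication helicase, fell in cultured against fresh (-1.49, adjusted p = 0.0261), and the others passed in none of the 3. The list's median was 0.19 in fresh minus tumor-free, -0.61 in cultured minus fresh and -0.59 in cultured minus tumor-free. In that order, 6, 20 and 20 of 23 lay below 0, and 1, 7 and 3 had an unadjusted p under 0.05 (limma).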

How the data were processed

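CD11b+ spleen cells were measured on 9 Affymetrix MG-U74Av2 arrays. The deposited values are intensity on a linear scale, made with MAS5 per the submitters' processing notes; no source used here gives its version or settings. The 2% trimmed mean was 100.06 to 100.08 on every array, so signals are relative to the rest of the array. No detection calls were used, so whether a dim signal is above background is unknown. Groups came from the sample titles.

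To each signal 7.83, the 20th percentile of the table, was added before log2, and differences of dim probe sets are understated on that scale. After removal of 66 control probe sets and then of the dimmest 30% by mean log2 value, 8695 were tested. limma 3.58.1 (R 4.3.3) fitted 3 group means, with trend and 6 residual degrees of freedom. Two-sided p-values were adjusted by Benjamini-Hochberg over all tested probe sets, with a threshold of 0.05. The fit was tested on simulated data with independent noise, which cannot show how it behaves under shifts shared by a whole array.

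Members and lists were chosen with earlier results of these data known. Named are, per comparison, the probe sets that passed, or else the 5 largest differences each way, together with fixed members (stalk, disease and extraribosomal genes, paralogs), genes whose probe sets disagreed in sign, and up to 4 passing genes of each other list. A named member does not have its value printed in every comparison. Signals described array by array beyond these, such as those of members without overlap between groups, were chosen after their values were seen. The alternatives covered normalization, offset, filter, blocks, probe set endings and left-out arrays. Calls of genes outside the members are given for the main fit only. Same-numbered arrays' deviations from their group means correlated at -0.20 to 0.26, and those of differently numbered arrays at -0.28 to 0.26. Between fresh and cultured arrays alone, the ranges were 0.03 to 0.26 for the same number and -0.28 to 0.23 for different numbers. These ranges overlap and rest on few arrays, so they cannot tell whether the replicate numbers pair the samples.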

Additional observations from a re-analysis of the deposited data

How the results depend on the processing

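Counts of members that passed depended most on the arrays used. Without tumor-free 1, fresh 3 and cultured 3, 10 members passed in fresh minus tumor-free (3 higher, 7 lower; 24.7% of all probe sets passed), 7 in cultured minus fresh (4 higher, 3 lower; 15.8%) and 8 in cultured minus tumor-free (6 higher, 2 lower; 20.8%), and the share, cultured minus tumor-free, was 0.487 percentage points in place of -0.202. That choice leaves tumor-free arrays of the low and tumor-bearing arrays of the high spike-in class, so class and tumor bearing cannot be told apart in it. Its cultured arrays also had higher spike-in signals and actin ratios than its fresh ones. When spike-in class entered the fit as a block, 1 member passed in fresh minus tumor-free (Rpl10a on 161327_f_at, lower) and 1 in cultured minus tumor-free (Rpl13a, lower). With plain probe set names only, 0 passed in cultured minus fresh, since Rps13 has another ending. Leaving out 1 array gave 0 to 1 in fresh minus tumor-free, 0 to 1 in cultured minus fresh, and 0 in cultured minus tumor-free; without fresh 3 the 1 in cultured minus fresh was Rps4x on 161654_r_at and not Rps13.

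The median of the 39 members in fresh minus tumor-free stayed between -0.31 and -0.14 when 1 array was left out and was -0.06 without the 3 arrays and -0.36 with spike-in class as a block. The share difference ranged from -0.752 to -0.396 and was -0.268 without the 3. In cultured minus fresh the median of 0.03 was -0.04 with arrays centred on the median, -0.03 without fresh 3 and -0.02 without cultured 2. In cultured minus tumor-free the median of -0.20 was -0.32 with that block, and the share was 0.359 percentage points without cultured 3. The cause of these shifts was not tested. With the replicate number as a block, the counts were 0, 1 and 0 as without it, and it changed no other call among the members. Of 1188 recomputed values of named members, 64 changed sign without passing either way, 18 passed only under the alternative, and 4 lost their call. Dropping the filter on dim probe sets cannot change the share, which uses all non-control probe sets.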

Other observations

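The array also carries control probe sets for 18S ribosomal RNA, the RNA of the small subunit, which the labelling of polyadenylated RNA is not built to measure. On the part nearest the 5′ end the signals were 49.99, 58.3 and 33.4 in tumor-free, 26.4, 13.1 and 6.88 in fresh, and 45.2, 61.5 and 17.0 in cultured samples. On the middle part they were 47.5, 62.0 and 36.3, then 5.31, 8.57 and 1.19, then 57.9, 68.5 and 20.8. On the part nearest the 3′ end they were 159, 218 and 155, then 87.6, 139 and 26.9, then 135, 169 and 164. Every fresh sample lay below every tumor-free sample on all 3 parts, and fresh 3 was the lowest of the 9 arrays on each. No test was run on these controls, which the fit leaves out.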
